A study of Homo sapiens with 6 samples.

Results

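Sites on the mitochondrial genome were examined by strand in 6 lists of RNA binding sites of the fragile X protein family. A site belonged to the set if its chromosome was M in the deposited list, and its strand was taken from the same line. There were 599 such sites among 464799 in all, 383 on the plus strand and 216 on the minus strand, and the remaining 464200 sites on nuclear chromosomes served for comparison. The sites came from PAR-CLIP, in which 4-thiouridine built into RNA is crosslinked by ultraviolet light to bound protein and the co-purified RNA fragments are sequenced.

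The cells were FlpIn T-Rex HEK293, an established human embryonic kidney line, in stable versions that each expressed a FLAG-HA tagged protein on induction. Both isoforms of FMR1, 1 and 7, were expressed in the wild-type form and with the substitution I304N, which lies in a KH domain, an RNA-binding fold. The paralogs FXR1 and FXR2 completed the set. Every line received 1 µg/ml doxycycline and 100 µM 4-thiouridine over 16 h, then ultraviolet light of 365 nm (0.15 J per square cm). Lysates were digested by RNase T1 (15 min, 22 °C) ahead of the FLAG immunoprecipitation. Each of the 6 protein forms had 1 library, so no value below carries a replicate error and no p-value was computed. Whether a line was a single clone is not stated in the labels, the cells keep their own copies of the genes, and no library from untagged cells was analysed here.

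Human mitochondrial DNA is transcribed from both strands into long precursors that span most of the circle. RNA with the sequence of the plus strand of the reference carries both ribosomal RNAs, every mRNA except that of ND6, and most tRNAs. RNA with the sequence of the minus strand carries ND6 and a few tRNAs, and its remainder is antisense RNA that mitochondria normally degrade quickly. Along the plus strand the ribosomal RNA genes come first, followed by the genes of respiratory chain subunits, and ND6 lies opposite a stretch close to the end, between ND5 and CYB. FMR1, FXR1 and FXR2 are known mainly as cytoplasmic RNA-binding proteins. The annotation at hand was of another build than the deposited positions, so genes and sequences under single sites were not analysed here, and positions are those of the deposited lists on hg19.

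The length of a list ran from 9017 sites in FXR1 and 34521 in FXR2 over 78495 (wild-type isoform 7), 88644 (I304N isoform 7) and 121903 (wild-type isoform 1) to 132219 in I304N isoform 1. Read numbers per site are not part of the lists, so all sites weigh equally, and sequencing depth, site calling and binding cannot be told apart. A range in parentheses is a 95% interval, by the exact Clopper-Pearson method for a share, the exact Poisson method for a level and the exact conditional method for a ratio. Such ranges hold counting error alone and do not show how repeat experiments would vary.

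Mitochondrial sites made up the highest share in wild-type isoform 7 and the lowest in I304N isoform 1. Wild-type isoform 7 had 143 sites on the plus strand and 99 on the minus strand, 0.308% of its list (0.271 to 0.350). Wild-type isoform 1 had 125 plus and 21 minus sites, 0.1198% (0.101 to 0.141). The mutant libraries were lower: I304N isoform 7 had 31 plus and 55 minus sites, 0.0970% (0.0776 to 0.1198), and I304N isoform 1 had 31 plus and 41 minus sites, 0.0545% (0.0426 to 0.0686). FXR1 had 18 sites, 0.200% of its short list (0.118 to 0.315), and FXR2 had 35, 0.101% (0.0706 to 0.141), all of them on the plus strand. The first rank of wild-type isoform 7 rests on wide sites: among sites of up to 40 nt its share was 0.152%, below the 0.200% of FXR1, and the interval of FXR1 over all sites also includes 0.308%.

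**Figure D1:**
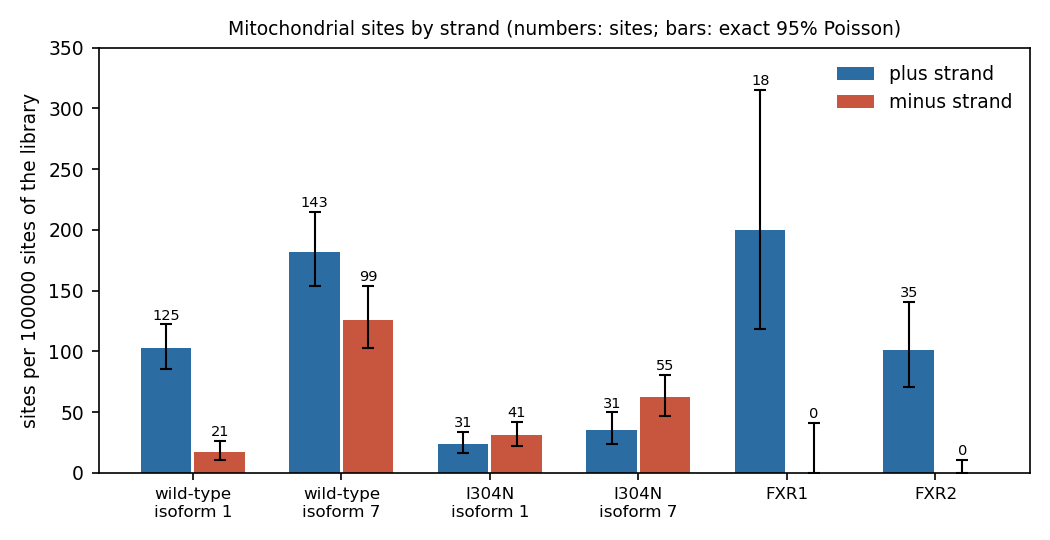
Mitochondrial sites per 100000 sites of each library (y axis) for the 6 libraries (x axis), plus strand in blue and minus strand in red, with exact 95% Poisson bars and the number of sites above each bar. Plus-strand bars exceed minus-strand bars in the wild-type FMR1, FXR1 and FXR2 libraries, and the order is turned in the I304N libraries, with 31 plus against 41 minus sites in isoform 1 and 31 against 55 in isoform 7.

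Measured in windows of 50 kb on 1 strand, a size that takes in a whole mitochondrial strand, the plus strand was among the densest places in the wild-type lists. It ranked 2 of 15849 windows with a site in wild-type isoform 7, 16 of 11524 in wild-type isoform 1, 29 of 3806 in FXR1 and 81 of 7976 in FXR2. In the mutants it ranked 946 of 15044 in I304N isoform 1 and 612 of 11262 in I304N isoform 7. The minus strand ranked 13 in wild-type isoform 7, 149 in I304N isoform 7, 526 in I304N isoform 1 and 1726 in wild-type isoform 1. The I304N libraries were therefore those in which the minus strand stood above the plus strand.

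The strands were unequally used in most libraries. The minus strand held 14.4% (9.13 to 21.1) of mitochondrial sites in wild-type isoform 1 and 40.9% (34.7 to 47.4) in wild-type isoform 7. It held 56.9% (44.7 to 68.6) in I304N isoform 1 and 64.0% (52.9 to 74.0) in I304N isoform 7. FXR1 had 0 of 18 and FXR2 had 0 of 35 sites on it, with upper interval ends of 18.5% and 10.0%. Nuclear sites were nearly even, with a minus-strand share between 48.1% in wild-type isoform 1 and 49.1% in FXR1.

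Over the 23 nuclear chromosomes other than Y, the minus-strand share ran from 38.4% (chromosome 5) to 56.4% (chromosome 8) in wild-type isoform 1, so its mitochondrial share and interval lay below every chromosome. In wild-type isoform 7 the chromosomes spanned 38.0% to 64.0%, which includes the mitochondrial value. The mitochondrial share of I304N isoform 1 lay within the chromosome range of 39.3% to 60.2%. That of I304N isoform 7 lay above its range of 39.2% to 60.1%, with an interval that overlaps it. For FXR1 and FXR2 the lowest chromosome share was 35.7% in each list, above the upper interval end of the mitochondrial share of either.

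**Figure D2:**
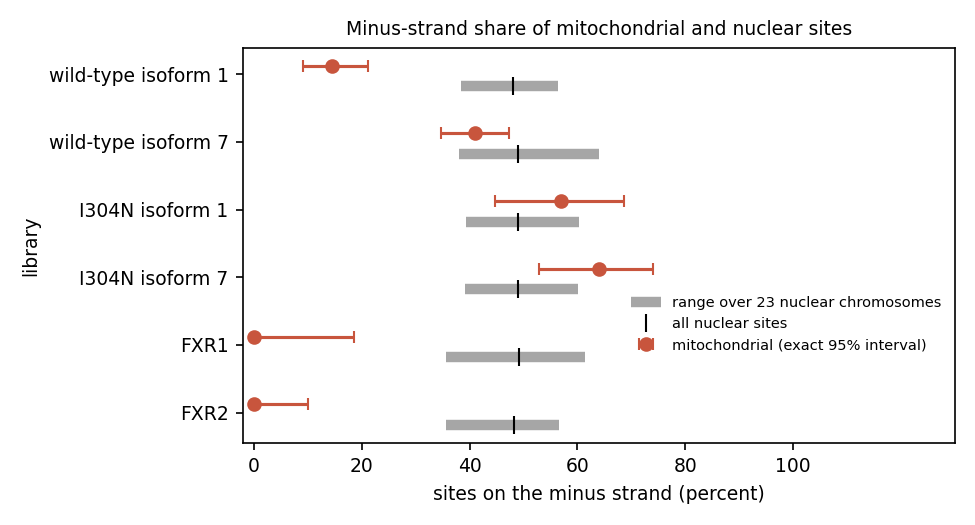
Percent of sites on the minus strand (x axis) in each library (y axis): red points with exact 95% intervals for mitochondrial sites, black ticks for all nuclear sites and grey bars for the range over 23 nuclear chromosomes. Wild-type isoform 1 (14.4%), FXR1 (0%) and FXR2 (0%) lie left of the grey bars, and I304N isoform 7 (64.0%) lies just right of its bar.

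Of 17 windows of 1000 nt, wild-type isoform 1 had a site in 17 on the plus strand and in 8 on the minus strand. Wild-type isoform 7 had sites in 16 and 15, and each I304N library in 12 on either strand. Among the FMR1 libraries the number of windows thus differed by strand mainly in wild-type isoform 1. FXR2 had plus-strand sites in 15 windows and FXR1 in 14, and neither list had a site on the minus strand. The densest plus-strand windows of wild-type isoform 1 were 10001 to 11000, with 14 sites, and 2001 to 3000 and 3001 to 4000, with 11 each. Wild-type isoform 7 was densest from 10001 to 11000 and from 15001 to 16000, with 13 sites each, and from 14001 to 15000, with 12. I304N isoform 1 was densest from 2001 to 3000 and 3001 to 4000, with 6 sites each, followed by 13001 to 14000, with 4. I304N isoform 7 was densest from 13001 to 14000, with 5, and from 3001 to 4000, 6001 to 7000 and 12001 to 13000, with 4 each. FXR1 and FXR2 were densest from 3001 to 4000, with 4 and 7 sites. FXR1 had 2 sites from 13001 to 14000 and no more than 1 in any other window, and FXR2 had 4 from 6001 to 7000 and 3 in each of 1001 to 2000, 10001 to 11000 and 13001 to 14000. The window from 3001 to 4000 held 41 plus-strand sites over the 6 libraries, the highest number of any window.

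Minus-strand sites were crowded toward the high positions. The windows 13001 to 14000, 12001 to 13000 and 11001 to 12000 were densest in I304N isoform 7, with 10, 8 and 7 sites. In I304N isoform 1 they held 10, 6 and 5, and 14001 to 15000 also held 5. Wild-type isoform 1 was densest from 14001 to 15000, with 7 sites, from 13001 to 14000, with 5, and from 12001 to 13000, with 3. Wild-type isoform 7 was spread more widely, with 11 sites in each of the windows 10001 to 11000 and 15001 to 16000 and 9 in each of 11001 to 12000 and 12001 to 13000. The 5 densest windows held 85.7% (63.7 to 97.0) of minus-strand sites in wild-type isoform 1, 73.2% (57.1 to 85.8) in I304N isoform 1, 63.6% (49.6 to 76.2) in I304N isoform 7 and 48.5% (38.3 to 58.7) in wild-type isoform 7. On the plus strand the corresponding shares were 44.0% (35.1 to 53.2), 67.7% (48.6 to 83.3), 64.5% (45.4 to 80.8) and 41.3% (33.1 to 49.8), in the same order of libraries. The 5 windows were picked in each library by these same counts, so such a share tends to be higher where sites are fewer. In that order the minus strand had 21, 41, 55 and 99 sites and the plus strand 125, 31, 31 and 143. The intervals do not allow for the picking. How much of these differences the number of sites gives was not tested.

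Some stretches, chosen after seeing the positions, were used on 1 strand only. From 1001 to 3000 the 6 libraries together had 53 sites on the plus strand and 0 on the minus strand. From 3001 to 9000 wild-type isoform 1 had 41 plus and 0 minus sites, whereas wild-type isoform 7 had 48 plus and 28 minus sites, a minus share of 36.8% (26.1 to 48.7). I304N isoform 1 had 10 plus and 7 minus sites there, and I304N isoform 7 had 12 and 10. From 9001 to 15000 the minus share was 26.9% (16.8 to 39.1) in wild-type isoform 1, 46.4% (37.0 to 56.1) in wild-type isoform 7, 72.7% (57.2 to 85.0) in I304N isoform 1 and 74.5% (60.4 to 85.7) in I304N isoform 7. The order of the 4 FMR1 libraries was thus the same here as over the whole genome, and the intervals of the wild-type and I304N libraries did not overlap in this stretch. Over the whole genome those of wild-type isoform 7 and I304N isoform 1 did.

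**Figure D3:**
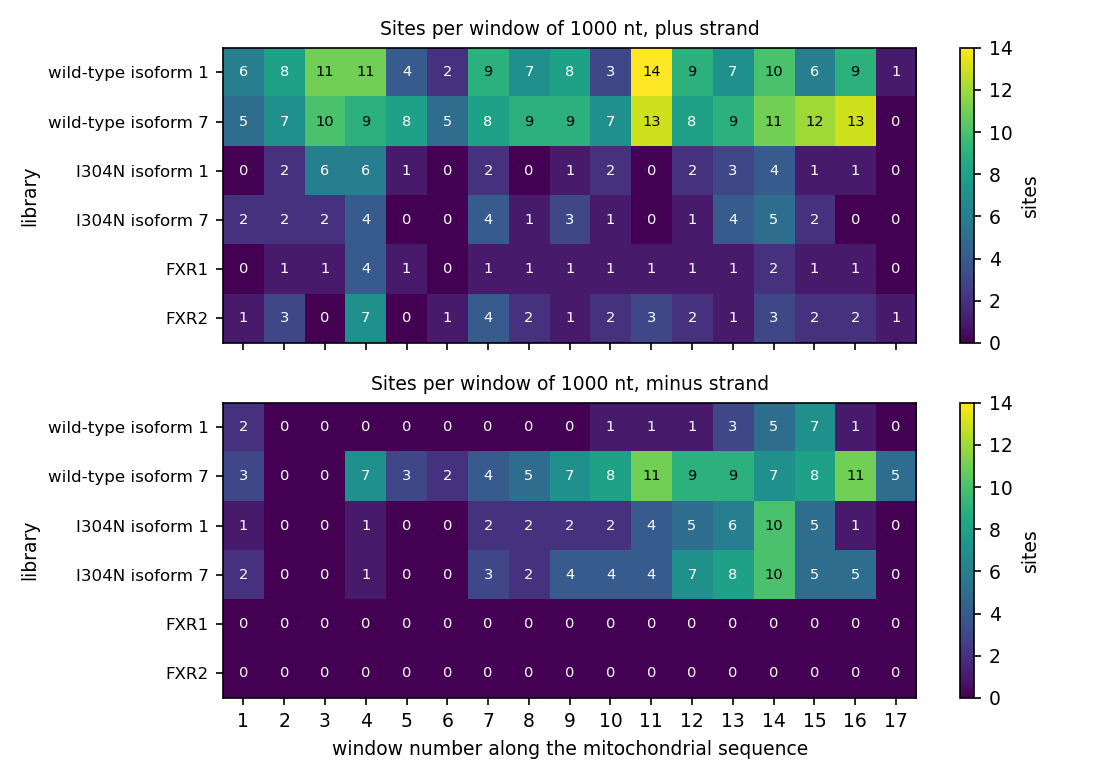
Number of sites (colour and printed digit) in each window of 1000 nt (x axis, numbered from the first base of the sequence) and library (y axis), plus strand above and minus strand below. Windows 2 and 3 hold 53 plus-strand and 0 minus-strand sites, and minus-strand sites gather in windows 11 to 16.

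The I304N libraries were set beside wild type to see how the substitution goes with mitochondrial sites. The plus strand of isoform 1 held 23.4 sites per 100000 with I304N and 102.5 in wild type, giving a ratio of 0.229 (0.149 to 0.341). For isoform 7 these densities were 34.97 and 182.2, and their ratio was 0.192 (0.126 to 0.285). Both passed the 2-fold limit on the log2 scale with a pseudocount of 1 site per 100000, with log2 ratios of -2.08 and -2.35. Over all windows of 50 kb with a mean of at least 2 sites, 17.7% were at least 2-fold lower in isoform 1 and 20.1% in isoform 7. Windows with a smaller log2 ratio than the mitochondrial plus strand made up 5.05% in isoform 1 and 5.43% in isoform 7.

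On the minus strand the isoforms differed in direction. I304N isoform 1 had 31.0 sites per 100000 and wild-type isoform 1 had 17.2. Their ratio of 1.80 (1.04 to 3.21) did not reach 2-fold, whereas 31.8% of windows were at least 2-fold higher. I304N isoform 7 had 62.0 and wild-type isoform 7 had 126.1, and their ratio was 0.492 (0.347 to 0.691). Its log2 ratio of -1.01 was just past the 2-fold limit. It was -0.72 under median-of-ratios scaling and -0.97 with a pseudocount of 5, both inside the limit. In covered bases it was -1.95, further past the limit. Median-of-ratios scaling also took the isoform 1 ratio past 2-fold, to a log2 ratio of 1.42. The difference in direction between isoforms was not tested, since each side rests on 1 library.

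The lower plus-strand density with I304N was spread along the genome. Of the 15 plus-strand windows of 1000 nt with a mean of at least 2 sites in both comparisons, 12 were at least 2-fold lower in both isoforms, against 2.65% of 11116 nuclear windows of that size and 5.91% of 50 kb windows. None was at least 2-fold higher in both, against 9.03% of the nuclear windows and 14.5% of the 50 kb windows. They covered 1 to 2000, 4001 to 5000, 6001 to 9000 and 10001 to 16000. From 10001 to 11000 wild-type isoforms 1 and 7 had 14 and 13 sites and neither I304N library had any. From 15001 to 16000 the counts were 9 and 13 in wild type and 1 and 0 with I304N. The 3 remaining windows were 2001 to 3000, 3001 to 4000 and 9001 to 10000, in which isoform 1 missed the limit. From 3001 to 4000 wild-type isoforms 1 and 7 had 11 and 9 sites and I304N isoforms 1 and 7 had 6 and 4. On the minus strand 5 windows could be compared in both isoforms. None passed 2-fold in the same direction, and the window from 10001 to 11000 did so in opposite directions, as did 1.90% of nuclear windows of that size and 4.33% of 50 kb windows.

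The isoforms were compared within wild type and within I304N. Wild-type isoform 7 had 7.32 times (4.54 to 12.3) the minus-strand density of wild-type isoform 1, 126.1 against 17.2 sites per 100000, a log2 ratio of 2.80. At least 2-fold higher density was seen in 20.6% of windows, and 2.20% had a log2 ratio as large as the mitochondrial minus strand. The plus-strand ratio was 1.78 (1.39 to 2.28) and did not reach 2-fold in number of sites, though it did in covered bases, with a log2 ratio of 1.78, and under median-of-ratios scaling, with 1.42.

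Within I304N the minus-strand ratio of isoform 7 to isoform 1 was 2.00 (1.31 to 3.08), from 62.0 against 31.0 sites per 100000, with a log2 ratio of 0.98 that lay just short of the limit. Only 4.93% of windows were at least 2-fold higher in that comparison. Covered bases gave a log2 ratio of 1.14 and median-of-ratios scaling 1.24, both past the limit. The plus-strand ratio was 1.49 (0.877 to 2.54), an interval that includes equal density. Isoform 7 thus held more minus-strand sites than isoform 1 in both forms, and both comparisons rest on 1 library a side.

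The paralogs were set beside wild-type FMR1. On the plus strand FXR2 was close to wild-type isoform 1, with 101.4 against 102.5 sites per 100000 and a ratio of 0.989 (0.659 to 1.45). Its ratio to wild-type isoform 7 was 0.557 (0.373 to 0.810). FXR1 had 199.6 sites per 100000, 1.95 times wild-type isoform 1 (1.12 to 3.20), 1.10 times wild-type isoform 7 (0.631 to 1.79) and 1.97 times FXR2 (1.05 to 3.57). None of these reached 2-fold, which 11.7% to 19.4% of windows did upward and 28.1% to 62.0% downward in these comparisons. Median-of-ratios scaling moved FXR1 against wild-type isoform 7 to a log2 ratio of -0.89 from 0.13, so no direction can be read from it. The same scaling took FXR2 against wild-type isoform 7 past the limit, from -0.84 to -1.53.

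On the minus strand FXR1 and FXR2 had 0 sites, so their ratios have only an upper end of the exact interval. For FXR2 it was 0.0863 against wild-type isoform 7 and 0.678 against wild-type isoform 1. For FXR1 it was 0.330 against wild-type isoform 7. Against wild-type isoform 1 it was 2.60, so a difference was not detectable at this depth. At least 2-fold lower density was seen in 29.1% of windows for FXR2 against wild-type isoform 7, 28.1% against wild-type isoform 1, 61.9% for FXR1 against wild-type isoform 7 and 62.0% against wild-type isoform 1.

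**Figure D4:**
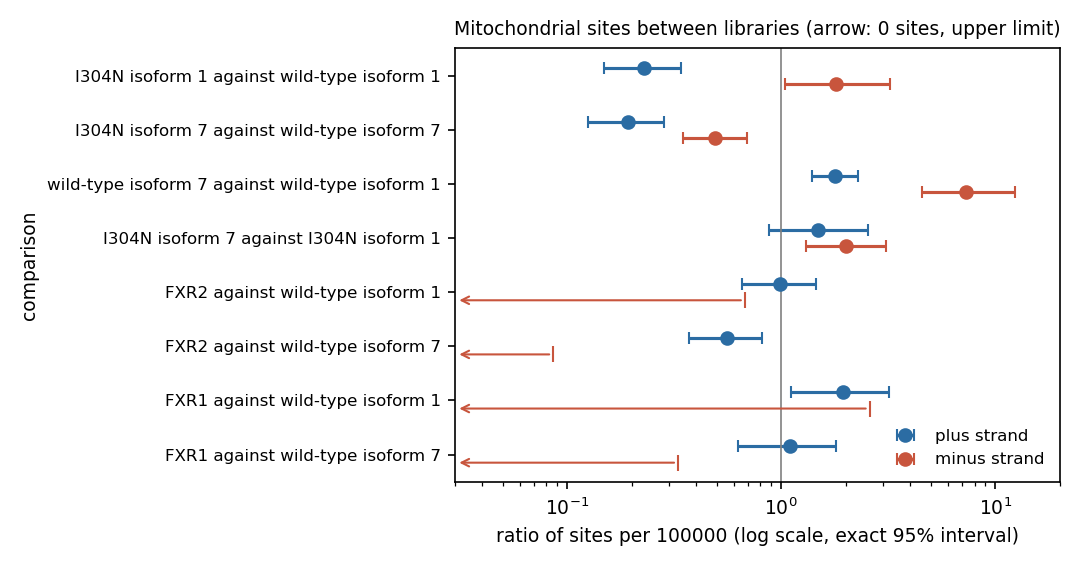
Ratio of mitochondrial sites per 100000 sites (x axis, log scale) for pairs of libraries (y axis), with exact 95% intervals, plus strand in blue and minus strand in red. Where the first library had 0 sites, an arrow starts at the upper limit, marked by a tick, and points to the left edge. Plus-strand ratios lie at 0.229 and 0.192 for I304N against wild type, and minus-strand ratios for the same comparisons lie on either side of 1, at 1.80 and 0.492.

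Mitochondrial sites were wider than nuclear ones in wild-type isoform 7. Their median width was 44 nt on the plus strand and 38 nt on the minus strand, against 22 nt for nuclear sites of that library. Widths of 60 nt or more were found in 28.7% (21.4 to 36.8) of its plus-strand and 29.3% (20.6 to 39.3) of its minus-strand sites, against 1.51% (1.43 to 1.60) of nuclear sites. The widest site, on the minus strand from 12335 to 12702, spanned 368 nt, as wide as the widest nuclear site of that list.

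The other libraries showed smaller differences. In wild-type isoform 1 the medians were 31 nt on the plus strand and 26 nt on the minus strand against 25 nt for nuclear sites, and 12.8% of plus-strand sites were 60 nt or wider against 6.60% of nuclear sites. I304N isoform 1 had medians of 23 nt and 30 nt against 24 nt, and I304N isoform 7 had 26 nt and 33 nt against 25 nt, so their minus-strand sites were the wider ones. None of the 31 plus-strand sites of either I304N library reached 60 nt, while 2 of 41 and 6 of 55 minus-strand sites did, 4.88% and 10.9%, against 5.08% and 5.15% of nuclear sites. The intervals of these mitochondrial shares all include the nuclear ones. FXR1 and FXR2 sites had a median of 27 nt in each list, against 21 nt for nuclear sites.

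Coverage followed from number and width. Wild-type isoform 7 sites covered 8120 bases of the plus strand and 5988 of the minus strand. In wild-type isoform 1 this was 4596 and 672 bases, in I304N isoform 1 it was 777 and 1395, and in I304N isoform 7 it was 798 and 2097. FXR1 covered 472 and FXR2 965 bases of the plus strand. Stretches without a site were measured between neighbouring sites, so those before the first and after the last site are left out. On the plus strand the longest was 379 nt in wild-type isoform 7 (4336 to 4714). In wild-type isoform 1 it was 1054 nt (8742 to 9795). No plus-strand site of any library began before 580, so the empty start of that strand is longer than 379 nt. On the minus strand the longest stretch between neighbouring sites was 2854 nt in wild-type isoform 7 (410 to 3263), 3485 nt in I304N isoform 7 (394 to 3878), 3557 nt in I304N isoform 1 (321 to 3877) and 9337 nt in wild-type isoform 1 (410 to 9746). All 4 of these long minus-strand gaps began just after the same cluster of sites, described below as the first minus-strand region.

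In FXR1 and FXR2 many mitochondrial sites had the same width of 32 nt, a value picked after seeing the widths. FXR1 had it at 8 of its 18 sites, 44.4% (21.5 to 69.2), and FXR2 at 10 of its 35, 28.6% (14.6 to 46.3). Among nuclear sites of these lists 1.29% (1.07 to 1.54) and 1.48% (1.36 to 1.62) had that width. In the 4 FMR1 libraries 1.16% to 4.79% of mitochondrial sites did. No mitochondrial FXR1 site was wider than 32 nt.

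Nearly every mitochondrial site of the smaller lists lay on a site of wild-type isoform 7. An overlap of at least 1 nt on the same strand was found for 143 of 146 wild-type isoform 1 sites, 97.9% (94.1 to 99.6), 70 of 72 I304N isoform 1 sites, 97.2% (90.3 to 99.7), and 82 of 86 I304N isoform 7 sites, 95.3% (88.5 to 98.7). For FXR1 it was 17 of 18 and for FXR2 33 of 35. Nuclear sites of these libraries met wild-type isoform 7 in 21.3% (FXR1) to 41.9% (I304N isoform 7) of cases. Wild-type isoform 7 covers far more of the mitochondrial genome than the other libraries, and how much of the overlap its coverage gives was not tested.

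In the opposite direction the shares were lower. Of 242 wild-type isoform 7 sites, 47.5% (41.1 to 54.0) met wild-type isoform 1, 24.4% (19.1 to 30.3) I304N isoform 1, 29.3% (23.7 to 35.5) I304N isoform 7, 7.02% FXR1 and 12.8% (8.87 to 17.7) FXR2. Against wild-type isoform 1 this was near the nuclear share of 48.7%, and against I304N isoforms 1 and 7 it was below the nuclear shares of 66.5% and 49.9%. For FXR1 the nuclear share was lower, 2.45%, and for FXR2 it was near, 13.8%. The strands differed: wild-type isoform 1 met 98 of 143 plus-strand but 17 of 99 minus-strand sites of wild-type isoform 7, while I304N isoform 7 met 29 of 143 and 42 of 99. List length limits these shares. I304N isoforms 1 and 7 had 72 and 86 mitochondrial sites, and wild-type isoform 1 had 21 on the minus strand. The nuclear I304N lists, with 132147 and 88558 sites, were longer than the 78253 of wild-type isoform 7. How much of the differences list length gives was not tested.

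Between the I304N libraries 49 of 72 isoform 1 sites met isoform 7, 68.1% (56.0 to 78.6), against 50.0% of nuclear sites, and 49 of 86 isoform 7 sites met isoform 1, 57.0% (45.8 to 67.6), against 76.0%. On the minus strand these were 33 of 41 and 33 of 55 sites, and on the plus strand 16 of 31 in each library. Of the 21 minus-strand sites of wild-type isoform 1, 13 met I304N isoform 1 and 14 met I304N isoform 7, 61.9% and 66.7%, against 44.7% and 30.5% of nuclear sites. Over both strands the mitochondrial shares were 25.3% and 26.7%. FXR1 sites met I304N isoform 1 in 2 of 18 cases and I304N isoform 7 in 1, and FXR2 sites in 6 and 5 of 35. The corresponding nuclear shares were 27.9% and 18.6% for FXR1 and 46.5% and 35.1% for FXR2. FXR1 and FXR2 had 12 sites in common. These were 66.7% (41.0 to 86.7) of mitochondrial FXR1 and 34.3% (19.1 to 52.2) of mitochondrial FXR2 sites, against 74.4% and 19.3% of nuclear sites, and 8 of the 12 had identical ends.

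The 8 sites with the same ends in FXR1 and FXR2 all lay on the plus strand. They ran from 3098 to 3124, 3257 to 3278, 3781 to 3812, 7133 to 7159, 9870 to 9901, 11276 to 11307, 14164 to 14195 and 15652 to 15683. Their widths were 27, 22, 32, 27, 32, 32, 32 and 32 nt. None of them had both ends in common with a wild-type isoform 1 site. Identical ends were rare in the FMR1 libraries, with 2 sites between wild-type isoforms 1 and 7, 1 between wild-type isoform 1 and FXR2, and 0 in the remaining 12 pairs. They were uncommon among nuclear sites of these 14 pairs too, at 1.91% to 10.5% of overlapping sites. Among nuclear sites of FXR1 and FXR2, 58.9% of overlapping sites had identical ends, so the mitochondrial share of 66.7% was near that of the rest of these lists.

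For a view over all libraries, sites on the same strand that overlapped or adjoined were merged into regions. The plus strand had 139 regions and the minus strand 95. On the plus strand 42 regions came from 1 library, 46 from 2, 22 from 3, 19 from 4, 5 from 5 and 5 from all 6. On the minus strand 46 came from 1 library, 21 from 2, 17 from 3 and 11 from all 4 FMR1 libraries.

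Wild-type isoform 7 alone gave 37 of the 42 plus-strand and 45 of the 46 minus-strand regions found in 1 library. The commonest plus-strand combination was both wild-type FMR1 libraries and no other, with 43 regions, and the commonest minus-strand combination after wild-type isoform 7 alone was wild-type isoform 7 with both I304N libraries, with 16. Regions shared by the wild-type FMR1 libraries but absent with I304N numbered 56 on the plus strand and 4 on the minus strand. The reverse, a region shared by the I304N libraries but absent from wild type, was seen on neither strand (0 regions). As shares of all regions of the strand, the first made up 40.3% (32.1 to 48.9) on the plus strand and 4.21% (1.16 to 10.4) on the minus strand, against 1.87% and 1.89% of nuclear regions. The reverse made up 8.23% and 8.45% of nuclear regions, above the upper interval ends of 2.62% and 3.81% for the mitochondrial strands. This comparison cannot show a difference from nuclear regions, because few mitochondrial regions could lack wild type at all. Of 139 plus-strand and 95 minus-strand regions, 134 and 94 contained sites from the list of wild-type isoform 7. The 40.3% also rests on unequal lists, as the I304N libraries had 31 plus-strand sites each, against 125 and 143 in wild type. The nuclear I304N lists, with 132147 and 88558 sites, were longer than the 121757 and 78253 of wild type in the same isoform. With sites of up to 40 nt only, the first set made up 21 of 165 plus-strand regions. How much of the difference from nuclear regions list length gives was not tested. Without wild-type isoform 7 the plus strand had 73 regions in 1 library and 60 in several, against 42 and 97 with it. The minus-strand counts were 32 and 33 without it and 46 and 49 with it.

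**Figure D5:**
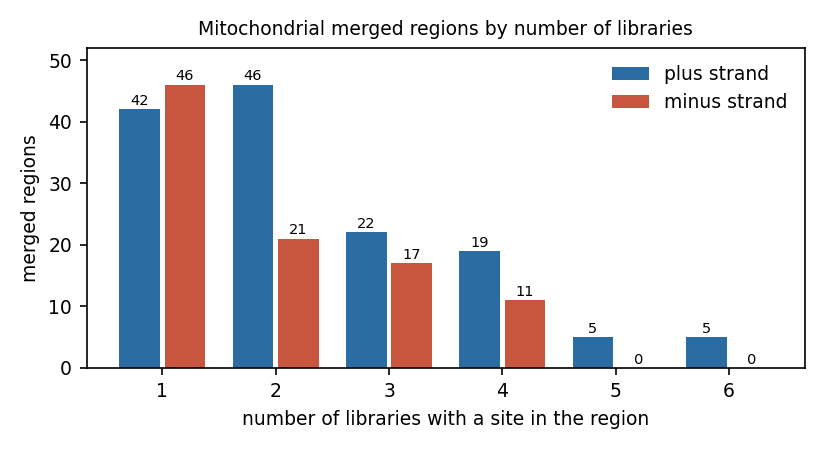
Number of merged mitochondrial regions (y axis) by the number of libraries with a site in the region (x axis), plus strand in blue and minus strand in red. The plus strand has 5 regions in all 6 libraries, and the minus strand has 11 in 4 libraries, the highest possible number there because FXR1 and FXR2 had no minus-strand site.

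The 5 plus-strand regions with a site in all 6 libraries ran from 1364 to 1454, 3066 to 3228, 3618 to 3812, 9793 to 9990 and 13091 to 13197. In the first of them each library had 1 site: 1372 to 1454 in wild-type isoform 1, 1364 to 1451 in wild-type isoform 7, 1406 to 1447 in I304N isoform 1, 1411 to 1449 in I304N isoform 7, 1404 to 1423 in FXR1 and 1418 to 1435 in FXR2. The mutant and paralog sites lay inside the span of the wild-type sites. The 6 bases from 1418 to 1423 were the only plus-strand bases covered in every library.

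In the other regions the I304N and paralog sites overlapped in some places and lay apart in others. From 9793 to 9990, wild-type isoform 7 had 1 site of 198 nt over the whole stretch, I304N isoform 1 had 9810 to 9829, I304N isoform 7 had 9814 to 9831, and FXR1 and FXR2 both had 9870 to 9901. The mutant sites therefore lay apart from the paralog sites there. From 3618 to 3812, I304N isoform 7 had 1 site, 3695 to 3708, and I304N isoform 1 had 2, 3624 to 3644 and 3681 to 3708. FXR1 and FXR2 shared 3781 to 3812 in that region, a part without an I304N site. FXR2 also had 3637 to 3668, over the end of the first of these I304N isoform 1 sites. From 3066 to 3228, FXR1 and FXR2 shared 3098 to 3124, inside the I304N isoform 1 site from 3083 to 3129 and directly after the I304N isoform 7 site from 3085 to 3097. From 13091 to 13197, FXR1 had 13147 to 13173 and FXR2 13140 to 13173, next to the I304N isoform 1 site from 13174 to 13193. The I304N isoform 7 site there ran from 13112 to 13139, directly before the FXR2 site.

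The 11 minus-strand regions found in all 4 FMR1 libraries began with the cluster from 233 to 409. It held 2 sites in wild-type isoform 1, 233 to 308 and 316 to 409, 1 in wild-type isoform 7 from 234 to 409, 1 in I304N isoform 1 from 295 to 320, and 2 in I304N isoform 7, 265 to 286 and 368 to 393. Before it lay only 2 sites of wild-type isoform 7, and the next minus-strand site of any library began at 3264. The next regions in order of position ran from 9736 to 9903, 11060 to 11348, 12060 to 12148, 12335 to 12702, 12883 to 13166, 13352 to 13405 and 13624 to 13887. The last 3 regions, between 13891 and 14827, complete the set.

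The region from 13352 to 13405 was the most alike between libraries, a choice made after seeing the positions. The sites were 13357 to 13397 in wild-type isoform 1, 13352 to 13405 in wild-type isoform 7, 13357 to 13392 in I304N isoform 1 and 13357 to 13389 in I304N isoform 7, so that 3 of 4 began at the same base. Wild-type isoform 7 had 1 site of 368 nt from 12335 to 12702, in which I304N isoform 1 had 12384 to 12409 and 12526 to 12576 and I304N isoform 7 had 12378 to 12419 and 12518 to 12573. The mutant sites paired up closely there, while wild-type isoform 1 had its site elsewhere, from 12637 to 12657. From 12883 to 13166 the bases 13008 to 13065 were covered in all 4 libraries, the longest such stretch on either strand with 58 nt.

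Base by base, all 4 FMR1 libraries covered 239 bases of the minus strand in 11 stretches and 254 bases of the plus strand in 13 stretches. These make up a small part of the 6195 minus-strand and 8590 plus-strand bases covered in any library. In 3633 and 3735 of them, on the minus and plus strand, only 1 library had a site.

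How often sites on opposite strands lay over each other differed between libraries. In wild-type isoform 7, 81 of 99 minus-strand sites, 81.8% (72.8 to 88.9), overlapped a plus-strand site of the same library, and 4178 bases were covered on both strands. The share was 8 of 21 in wild-type isoform 1, 7 of 41 in I304N isoform 1, 17.1% (7.15 to 32.1), and 13 of 55 in I304N isoform 7, 23.6% (13.2 to 37.0). Among nuclear minus-strand sites 0.0341% to 0.139% overlapped a site of the other strand in these 4 libraries, but nuclear sites are far more thinly spread. In the I304N libraries most minus-strand sites thus had no plus-strand site opposite, 34 of 41 and 42 of 55. Plus-strand sites spanned only 777 and 798 bases in these I304N lists, against 8120 bases with wild-type isoform 7. How much of the overlap shares follows from such coverage was not tested. With sites that overlap the other strand left out, the minus share of wild-type isoform 7 was 26.5% in place of 40.9%.

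The authors' repeat flag was set for 19 of 383 plus-strand and 0 of 216 minus-strand sites. By library it marked 0% to 7.69% of plus-strand sites, against 3.03% to 6.11% of nuclear sites. All flagged sites lay between 2318 and 4335, and 11 of them were in wild-type isoform 7. Long nuclear copies of mitochondrial DNA exist, among them a well-known copy near the start of chromosome 1 that falls in the hg19 window from 550001 to 600000, where reads of mitochondrial RNA could be placed. That window held 2 sites in wild-type isoform 7, both on the plus strand, and 0 in the other 5 libraries.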

How the data were processed

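PAR-CLIP site lists of 6 libraries, 1 per protein form, were grouped by the immunoprecipitated protein in the labels. The submitters' processing notes name Bowtie 0.12.7 and the build hg19. The caller of sites, with its thresholds, and the handling of reads that fit several places: not given in the sources used here. Per the file headers, the deposited score is only a repeat flag (0 in a repeat, 1000 elsewhere). The other deposited values used are start, end and strand.

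RNase T1 cuts after G, so G at site ends was compared with GENCODE 29 mitochondrial transcripts (GRCh38) to check the numbering. Over most of the sequence, G before the first plus-strand base peaked at an offset of 2 nt (51.0% of 302 sites, 5.30% at offset 0) and G at the last base at 1 nt (34.2%). In the first part the peaks were at 3 and 2 nt. The numbering therefore differs between builds, and no gene or sequence was assigned. The unequal offsets of both ends place the first base of a site at the start value itself, so widths count start and end.

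Sites were counted at their midpoints, scaled to 100000 sites per library, and called at 2-fold on log2 with a pseudocount of 1, where the compared libraries averaged 2 sites or more per window. The 2-fold calls were tested on simulated 50 kb windows modelled on the isoform 1 libraries. Those windows held far more sites than the lowest mean used here, so calls at few sites were not tested. Overlap meant at least 1 nt on the same strand. The text names the 3 densest windows per library and strand (with ties above 1 site), windows at 2-fold in the same direction with I304N in both isoforms, and up to 8 merged regions per strand with most libraries. Members, lists and rules were chosen with earlier results of these data known. Python 3.11.15, numpy 2.4.6, scipy 1.17.1 and matplotlib 3.10.9 were used.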

Additional observations from a re-analysis of the deposited data

Results flagged for a closer look

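Mitochondrial minus-strand sites moved in opposite directions with I304N in the isoforms. The log2 ratio to wild type was 0.81 in isoform 1, from 41 against 21 sites, and -1.01 in isoform 7, from 55 against 99 sites. The difference between isoforms was not tested. In the minus-strand window from 10001 to 11000 the log2 ratios were 1.14, from 4 against 1 sites, and -1.45, from 4 against 11 sites, and this difference was not tested either. Opposite 2-fold differences were seen in 1.90% of nuclear windows of that size and 4.33% of 50 kb windows.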

How the results depend on the processing

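No paired analysis was possible because each group had 1 library, and for the same reason no library could be left out within a group. Depth limits FXR1 most, with 18 mitochondrial sites. The directions of the plus-strand I304N ratios and their 2-fold calls were the same under each setting run. Measured in covered bases, the mitochondrial share of wild type was 0.142% for isoform 1 and 0.742% for isoform 7 (0.142% and 0.761% with the start read as 0-based, a setting chosen after seeing the data). With sites of up to 40 nt only, that of isoform 7 was 0.152%. Without sites that overlap the other strand, the minus share of wild-type isoform 7 was 26.5%.

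Median-of-ratios scaling gave minus-strand log2 ratios of 1.42 for I304N against wild type in isoform 1, -0.72 in isoform 7, and 1.24 for I304N isoform 7 against I304N isoform 1. On the plus strand it gave 1.42 for wild-type isoform 7 against isoform 1, -0.89 for FXR1 and -1.53 for FXR2 against wild-type isoform 7. Covered bases gave 1.78 for wild-type isoform 7 against isoform 1, 1.00 for FXR1 against wild-type isoform 1, -0.78 for FXR1 and -1.73 for FXR2 against wild-type isoform 7, and 1.14 on the minus strand for I304N isoform 7 against I304N isoform 1. A pseudocount of 5 gave -0.97 for I304N isoform 7 against wild type on the minus strand. Without repeat sites, FXR1 against FXR2 gave 1.01.

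With strand ignored, I304N isoforms 1 and 7 met 39.7% and 47.9% of wild-type isoform 1 sites. Wild-type isoform 1, I304N isoforms 1 and 7, FXR1 and FXR2 met 69.8%, 37.2%, 44.6%, 12.4% and 21.9% of wild-type isoform 7 sites. Wild-type isoforms 1 and 7 and FXR2 met 84.7%, 100% and 19.4% of I304N isoform 1 sites. Wild-type isoforms 1 and 7, I304N isoform 1, FXR1 and FXR2 met 82.6%, 98.8%, 68.6%, 6.98% and 23.3% of I304N isoform 7 sites. Wild-type isoform 7 met 100% and I304N isoform 7 met 33.3% of FXR1 sites, and I304N isoforms 1 and 7 met 34.3% and 48.6% of FXR2 sites. Without repeat sites, a setting added after seeing the data, wild-type isoform 7 met 93.7% of wild-type isoform 1 and 90.1% of I304N isoform 1 sites.

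With sites of up to 40 nt only, 95 plus-strand and 76 minus-strand merged regions came from 1 library, 28 minus-strand regions from several, 2 plus-strand and 1 minus-strand region from all 4 FMR1 libraries, and 0 from all 6. Regions in both wild-type FMR1 libraries without I304N were then 21 on the plus strand and 1 on the minus strand. Without wild-type isoform 7, also added later, 73 plus-strand regions came from 1 library and 60 from several. The cause of these differences was not tested.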
